A study of Mus musculus with 6 samples.

Results

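The 6 genes described here, Abi3bp, Kctd12, Mc5r, Atoh8, Il1rn and Lyz2, were picked from the 55335 genes of the count table because their read counts were far lower in mouse fibroblasts collected after passage through narrow pores than in parental fibroblasts. All 6 were among the 15881 genes with enough counts to be tested. Since this difference chose them, their own values are given as a description, without a test. The mean level left after pore passage ranged from 5.93% of the parental level for Kctd12 to 16.1% for Lyz2.

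The 6 genes share no pathway by name, and most encode proteins that act at or outside the cell surface. Abi3bp encodes a secreted glycoprotein of the extracellular matrix, the protein mesh that fibroblasts lay down around themselves. Il1rn encodes the interleukin-1 receptor antagonist, which occupies the interleukin-1 receptor without activating it and so restrains the inflammatory signal of Il1a and Il1b. Lyz2 encodes a lysozyme, an enzyme that cuts bacterial cell walls and is best known from macrophages and neutrophils. Mc5r encodes a G protein-coupled receptor for melanocortin peptides that raises cyclic AMP, Kctd12 an accessory subunit of the GABA-B receptor, and Atoh8 a basic helix-loop-helix transcription factor of the atonal family.

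RNA-seq was performed on mouse embryonic fibroblasts (MEF, genotype WT) to ask which genes change when cells squeeze through a confined space. Control (Ctrl) samples were parental cells, and Confine samples were the same cells seeded on a transwell membrane with 3 μm pores, from which the cells that had crossed were collected after 15 h. The labels give one culture medium with fetal bovine serum for all samples. The methods describe a migration assay on wider pores with serum kept below the membrane, and whether the sequenced cells crossed in such a serum difference is not given in the sources used here. No group on wider pores was analysed here, so effects of squeezing, of growth on a membrane, of any serum difference and of selecting the cells able to cross cannot be told apart.

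Each group had 3 deposited columns, but Confine columns 1 and 2 were identical in all 55335 genes. They were counted as 1 library, called Confine replicate 2, which left 3 Ctrl and 2 Confine libraries. The Ctrl libraries held 22287210 to 27853805 counts, and the Confine libraries 27290138 and 32537550. Nothing in the labels says that replicates came from separate cultures, so p-values measure the spread between these samples, which may be technical. Among 12 fibroblast markers, 8 passed the filter on low counts, and Col1a1, Col1a2, Vim and Fn1 were abundant. Thy1, Dcn, Lum and Fap, which many fibroblasts also express, had between 0 and 27 counts in every library.

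Levels are given as normalized CPM, that is a gene's share of the library's counts expressed as CPM after TMM scaling, where a floor of 3 counts equals 0.101 to 0.128. A gene was called when its adjusted p in edgeR's quasi-likelihood test was under 0.05 and its log2 fold change was beyond 1.5 in either direction. All 6 genes met this rule, as did 3.11% of tested genes in the lower direction (494 genes) and 4.89% in the higher direction (777 genes). Higher calls made up 61.1% of the total, or 47.8% when libraries were scaled by their total counts alone, which moved the median log2 fold change of all genes to -0.21. Nothing can be read from the calls of the 6 genes, which the same contrast selected. In each of them the lowest Ctrl library lay above the highest Confine library, by 4.66-fold for Lyz2 up to 12.8-fold for Abi3bp. This separation is likewise favoured by the choice of genes. Its share over all tested genes was not computed, and genes that were not called, such as Il18 and Gabbr1, were also separate.

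**Figure D1:**
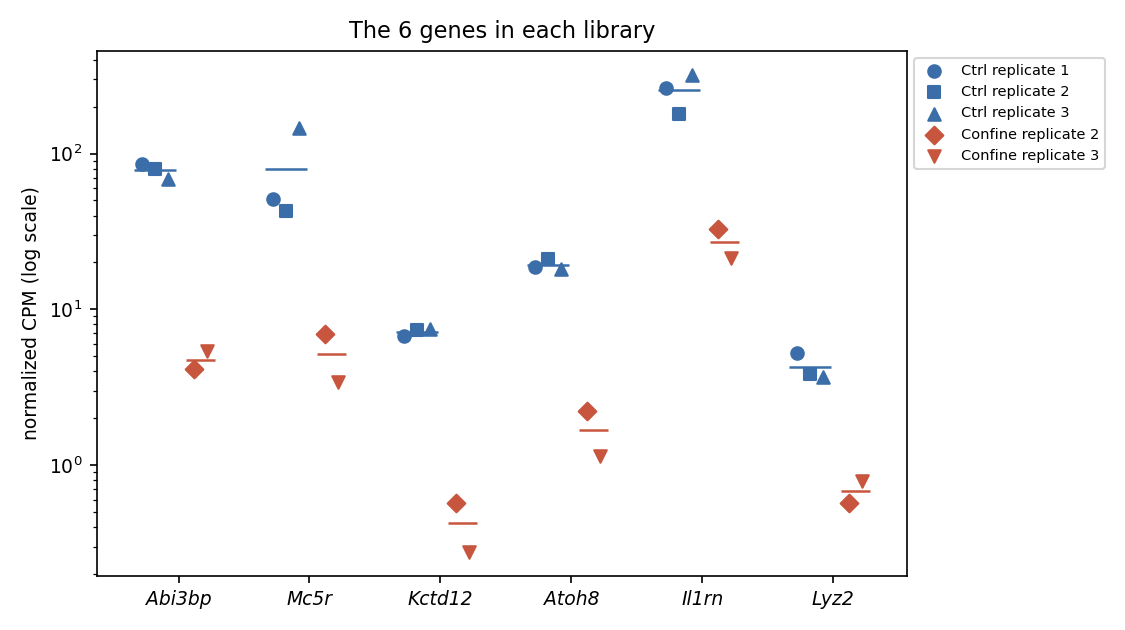
Normalized CPM on a log axis for each of the 6 genes in the 5 libraries, with Ctrl in blue, Confine in red and a line at each group's mean. The groups are separate for every gene, which the choice of the genes by this contrast favours. Ctrl replicate 3 stands above the other Ctrl libraries for Mc5r, at 145 normalized CPM against 42.5 and 51.3.

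The name "most strongly lost" held for the first 5 genes better than for Lyz2. Among the 304 genes called lower with a mean of at least 50 counts, Abi3bp, Kctd12, Mc5r and Atoh8 took ranks 2 to 5 by log2 fold change, and Il1rn rank 7. Rank 1 went to Alpl, tissue-nonspecific alkaline phosphatase, with 122, 56 and 65 counts in Ctrl and 4 and 3 in Confine, and rank 6 to Dchs2, a large cadherin-related protein. Lyz2 had rank 26 with a log2 fold change of -2.64, next to Fosb just above it and Mns1 just below it, both also at -2.64 after rounding. In all, 20 genes outside the chosen 6 ranked above Lyz2. Below the limit of 50 counts, 25 genes called lower had a larger fall than Abi3bp.

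**Figure D2:**
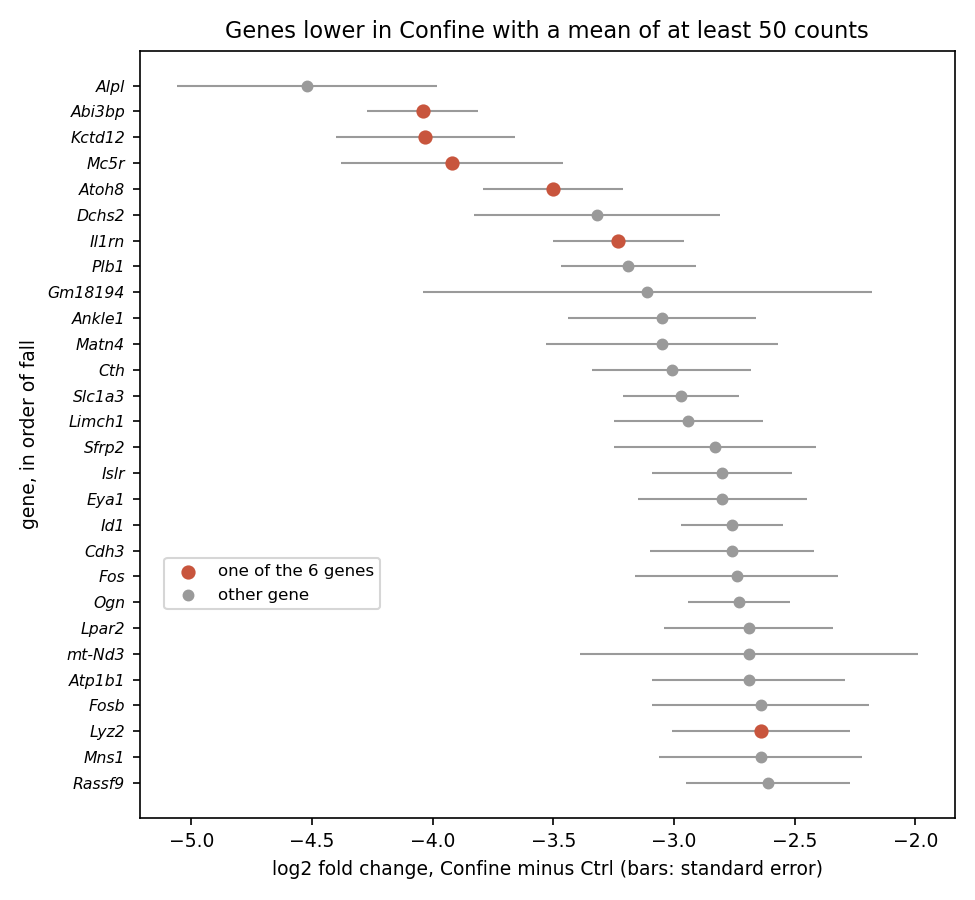
Log2 fold change, Confine minus Ctrl, of the first 28 genes in the order of fall among genes called lower with a mean of at least 50 counts, with bars of 1 standard error. The 6 genes are in red, and Lyz2 stands at rank 26 with 20 other genes above it.

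Abi3bp, a matrix protein named for binding the actin regulator ABI3, lies on chromosome 16 (GRCm38, chr16:56477878-56690135, plus strand). It had 2468, 2107 and 1620 counts in Ctrl and 122 and 136 in Confine. The mean was 77.9 ± 8.32 normalized CPM (SD, n = 3) in Ctrl and 4.76 ± 0.904 (SD, n = 2) in Confine, a log2 fold change of -4.04 (SE 0.23), or 16.4-fold lower. Both groups were tight, with the highest Ctrl library 1.24-fold above the lowest. Abi3 itself, its named binding partner, had 2, 7 and 9 counts in Ctrl and 0 in both Confine libraries. Its Ctrl mean was 2.17-fold above a floor of 3 counts per library, with counting error not included. Abi1 (log2 fold change -0.033, SE 0.18) and Abi2 (0.28, SE 0.18), the abundant paralogs that sit in the actin-nucleating WAVE complex, were not called.

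Of 36 other genes listed as ABI, WAVE complex or small matrix proteins, 28 were tested, 1 was called higher and 2 lower. The small leucine-rich proteoglycan Ogn, which binds collagen fibrils, fell from 148 ± 16.3 to 22.4 ± 2.71 normalized CPM (SD, n = 3 and n = 2), a log2 fold change of -2.73 (SE 0.21, edgeR adjusted p = 2.71e-08). Efemp1, a fibulin of elastic fibres, fell with a log2 fold change of -2.21 (SE 0.47, edgeR adjusted p = 0.00175), with 103, 59 and 116 counts in Ctrl and 34 and 9 in Confine. The tenascin gene Tnxb rose by 1.66 on the log2 scale (SE 0.28, edgeR adjusted p = 0.000201). Its value dropped under the fold threshold without Ctrl replicate 1 (1.38) and without Confine replicate 3 (1.47). The median log2 fold change of the 28 genes was 0.038. At an adjusted p under 0.05 without a fold limit 8 were lower and 8 higher. Over all 15881 tested genes, 1619 were lower and 2035 higher on those terms.

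Il1rn had by far the highest level of the 6 genes and made up 53.8% to 69.4% of their summed counts in every library. It lies at chr2:24336853-24351494 on the plus strand and had 7634, 4765 and 7554 counts in Ctrl against 973 and 536 in Confine. The mean was 255 ± 71.0 normalized CPM (SD, n = 3) in Ctrl and 27.1 ± 8.20 (SD, n = 2) in Confine, with a log2 fold change of -3.23 (SE 0.27), or 9.42-fold lower. Even so, Il1rn remained readily detected, with at least 21.3 normalized CPM in each Confine library.

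Of 3 RefSeq promoter windows for Il1rn (build GRCm38.p6), the one ending just before the annotated gene start is shown because it holds the AP-1 motif TGANTCA, which 6.75% of 32817 promoter windows of 250 bases hold on either strand. It covers chr2:24336610-24336852 on the plus strand, and capitals mark the motif.
Il1rn promoter: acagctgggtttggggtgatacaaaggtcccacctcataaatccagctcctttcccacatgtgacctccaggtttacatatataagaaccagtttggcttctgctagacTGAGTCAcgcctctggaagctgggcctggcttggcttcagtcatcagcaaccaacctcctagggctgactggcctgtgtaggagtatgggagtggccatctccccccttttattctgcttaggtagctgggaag
The percentage is for single windows, while this window was picked from 3 for its match, with 7 motifs searched. The match is a description of letters, not of binding.

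The agonists that Il1rn opposes were barely detected. Il1a had 0 counts in all Ctrl libraries and 11 and 8 in Confine, a mean 3.0-fold above the floor, with counting error not included. Il1b had 0 counts in Ctrl and 3 and 6 in Confine, so Confine replicate 2 was at the floor itself and no fold is given. Il1r1, the receptor that Il1rn blocks, had 16.1 ± 1.68 normalized CPM in Ctrl and 35.6 ± 1.65 in Confine (SD, n = 3 and n = 2), a log2 fold change of 1.15 (SE 0.19, edgeR adjusted p = 0.000153) that lay under the fold limit. The decoy receptor Il1r2 had at most 1 count in any library, and the shared co-receptor Il1rap was not called, at a log2 fold change of -0.10 (SE 0.24). In the neighbouring IL-33 branch the ligand Il33 rose from 6.93 ± 1.27 to 27.1 ± 4.89 normalized CPM (SD, n = 3 and n = 2), a log2 fold change of 1.97 (SE 0.22, edgeR adjusted p = 2.35e-06). Its receptor Il1rl1 had a log2 fold change of 1.00 (SE 0.25, edgeR adjusted p = 0.00595), also under the fold limit. Il33 was the 1 called gene of 15 tested in a list of 25 IL-1 family ligands, receptors and adaptors, and none of the list was called lower. Among the 15, the median log2 fold change was -0.032. At an adjusted p under 0.05 without a fold limit, 4 were higher and none lower. These were Il33, Il1r1, Il1rl1 and the adaptor Traf6 (1.14, SE 0.23, edgeR adjusted p = 0.00123). The numbers over all tested genes on those terms are given above with the matrix list.

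Mc5r, at chr18:68337596-68342446 on the plus strand, was the least even of the 6 genes. It had 1485, 1124 and 3401 counts in Ctrl and 207 and 86 in Confine, so that Ctrl replicate 3 stood apart. The highest Ctrl library was 3.40-fold above the lowest, a spread that 0.492% of 11785 genes with a mean of at least 50 counts reached, against a median of 1.33-fold. The mean was 79.5 ± 56.6 normalized CPM (SD, n = 3) in Ctrl and 5.20 ± 2.53 (SD, n = 2) in Confine, with a log2 fold change of -3.92 (SE 0.46). Without Ctrl replicate 3 the value was -3.18 and without Confine replicate 2 it was -4.54.

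The melanocortin precursor and the other melanocortin receptors were at or near 0 counts. Pomc, the precursor of every melanocortin agonist, had 0 counts in all libraries, Mc4r likewise, and Mc1r, Mc2r and Mc3r had at most 2 counts in any library. Mrap, an accessory protein of melanocortin receptors, had at most 3. Mc5r was therefore the only melanocortin receptor with more than 2 counts in any of these 5 libraries. Of 24 other listed genes, 11 were tested and 1 was called. Adcy4, an adenylyl cyclase, which makes cyclic AMP, rose from 11, 3 and 3 counts in Ctrl to 45 and 118 in Confine, a log2 fold change of 3.83 (SE 0.57, edgeR adjusted p = 6.6e-05). None of the other tested cyclases (Adcy3, Adcy5, Adcy6, Adcy7 and Adcy9) was called.

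Kctd12, at chr14:102976581-102982637 on the minus strand, had the lowest level per length of the 6 genes. In Ctrl it had 196, 194 and 175 counts and in Confine 17 and 7. The mean was 7.18 ± 0.360 normalized CPM (SD, n = 3) in Ctrl, the tightest Ctrl group of the 6 genes, and 0.426 ± 0.210 (SD, n = 2) in Confine, with a log2 fold change of -4.03 (SE 0.37). The 7 counts of Confine replicate 3 have an exact 95% Poisson interval of 2.81 to 14.4, which covers counting error only, and without Confine replicate 2 the log2 fold change was -4.66. An annotated gene on the opposite strand, Gm26778, covers 4309 bp of Kctd12. It was not analysed here, and whether strand was used in counting is not given in the sources used here, so its reads may be included in those of Kctd12.

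Kctd12 is known as a partner of the GABA-B receptor, an inhibitory receptor for the neurotransmitter GABA built from Gabbr1 and Gabbr2. Gabbr1 had 21.8 ± 3.26 normalized CPM in Ctrl and 26.2 ± 0.635 in Confine (SD, n = 3 and n = 2) and was not called, while Gabbr2 had 0 counts in all libraries. Of the other GABA-B accessory subunits, Kctd8 had 0 counts throughout, and the X-linked Kctd12b had 4, 5 and 8 counts in Ctrl and 1 and 1 in Confine. The ratio of Kctd12b in Ctrl over Confine was 5.90, with a 95% exact counting interval of 1.40 to 52.7. Kctd16 went the other way, from 0 counts in Ctrl to 36 and 59 in Confine (edgeR adjusted p = 1.17e-05). Its Confine mean was 15.5-fold above the floor of 3 counts per library. The gene AC164106.1 lies inside Kctd16 on the same strand and had 0 counts in Ctrl and 310 and 458 in Confine, so the reads of both are uncertain. Kctd11, an adaptor for ubiquitin ligase known to restrain Hedgehog signalling, rose from 17.5 ± 1.14 to 112 ± 15.4 normalized CPM (SD, n = 3 and n = 2), a log2 fold change of 2.68 (SE 0.18, edgeR adjusted p = 6.86e-09). These were the 2 called genes of 18 tested among 23 other KCTD and GABA-B genes, with none called lower and a median log2 fold change of 0.20.

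Atoh8, at chr6:72206177-72235577 on the minus strand, had 542, 562 and 429 counts in Ctrl and 66 and 29 in Confine. The mean was 19.4 ± 1.61 normalized CPM (SD, n = 3) in Ctrl and 1.69 ± 0.763 (SD, n = 2) in Confine, with a log2 fold change of -3.50 (SE 0.29), or 11.5-fold lower. Ctrl libraries were close together, and Confine replicate 2 was 1.94-fold above Confine replicate 3. Its promoter window (RefSeq, GRCm38.p6, chr6:72235578-72235827, minus strand) is shown because the protein belongs to the family that binds E-boxes (CANNTG), of which it holds 2, in capitals. E-boxes are common, being found in 66.2% of promoter windows. One of the pair also contains the letters ACGTG, the core that hypoxia-inducible factors bind, which 16.6% of windows hold.
Atoh8 promoter: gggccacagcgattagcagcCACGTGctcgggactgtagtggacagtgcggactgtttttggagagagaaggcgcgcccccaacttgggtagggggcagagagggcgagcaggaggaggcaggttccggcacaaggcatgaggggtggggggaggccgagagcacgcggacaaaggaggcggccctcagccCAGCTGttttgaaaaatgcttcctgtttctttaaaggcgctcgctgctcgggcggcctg

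Basic helix-loop-helix factors work as dimers with E proteins, and Id proteins block such dimers. The Id genes and the inhibitory Smads are textbook targets of bone morphogenetic protein (BMP) signalling, and Atoh8 is known as a BMP-responsive gene as well. Id1 fell from 1257, 1020 and 991 counts in Ctrl to 181 and 154 in Confine, a log2 fold change of -2.76 (SE 0.21, edgeR adjusted p = 2.21e-08). Id3, the most abundant gene of the list in Ctrl, fell from 1620 ± 201 to 275 ± 35.4 normalized CPM (SD, n = 3 and n = 2), a log2 fold change of -2.55 (SE 0.20, edgeR adjusted p = 4.94e-08). Smad9, a receptor-activated Smad of the BMP branch, fell with a log2 fold change of -2.54 (SE 0.53, edgeR adjusted p = 0.00176), from 63, 52 and 23 counts to 9 and 7. Another pair of genes of the pathway had adjusted p-values under the threshold with smaller fold changes: the inhibitory Smad6 at -1.40 (SE 0.31, edgeR adjusted p = 0.00239) and the ligand Bmp4 at -1.21 (SE 0.21, edgeR adjusted p = 0.000347). On the same terms the receptor genes Acvr1 (0.85, SE 0.19, edgeR adjusted p = 0.00337), Eng (0.73, SE 0.22, edgeR adjusted p = 0.0198) and Bmpr2 (0.62, SE 0.20, edgeR adjusted p = 0.0289) were higher. Smad6 passed the fold limit without Ctrl replicate 1 (-1.61) and without Confine replicate 3 (-1.51).

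Other genes of the same list moved the opposite way. The inhibitory Smad7 rose by 1.77 on the log2 scale (SE 0.23, edgeR adjusted p = 1.76e-05), but only by 1.33 without Confine replicate 3, under the fold limit. The secreted BMP antagonist Grem1 rose from 195 ± 12.9 to 707 ± 158 normalized CPM (SD, n = 3 and n = 2), a log2 fold change of 1.86 (SE 0.19, edgeR adjusted p = 7.93e-07). The receptor Acvrl1 had 6, 2 and 2 counts in Ctrl and 15 and 18 in Confine and was called at a log2 fold change of 2.24 (SE 0.70, edgeR adjusted p = 0.0274). That call was lost when any library other than Ctrl replicate 1 was left out, at values of 1.97 to 2.47. Id2 was not called, at 0.55 (SE 0.19, edgeR adjusted p = 0.0412), and neither were the E proteins Tcf3 (-0.10), Tcf4 (0.34) and Tcf12 (-0.05). Of the 31 other genes of the list 19 were tested, with 3 called higher, 3 lower and a median log2 fold change of -0.047. Without the fold limit, 7 were higher and 5 lower at an adjusted p under 0.05, beside 2035 and 1619 of all 15881 tested genes.

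**Figure D3:**
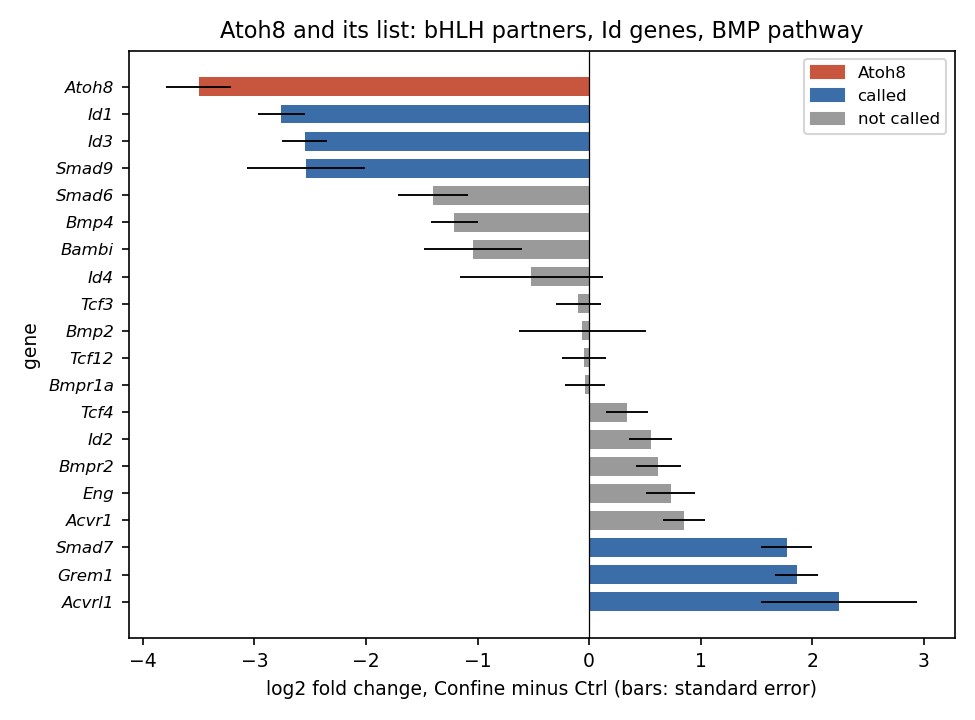
Log2 fold change, Confine minus Ctrl, of Atoh8 (red) and the 19 other tested genes of its list, with called genes in blue, genes not called in grey and bars of 1 standard error. Id1, Id3 and Smad9 lie on the lower side with Atoh8, whereas Smad7, Grem1 and Acvrl1 lie on the higher side.

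Lyz2, at chr10:117277331-117282321 on the minus strand, had the fewest Ctrl counts of the 6 genes, with 152, 101 and 87, and 17 and 20 in Confine. The mean was 4.26 ± 0.864 normalized CPM (SD, n = 3) in Ctrl and 0.684 ± 0.155 (SD, n = 2) in Confine, with a log2 fold change of -2.64 (SE 0.37), or 6.22-fold lower. Lyz1, its tandem copy 5476 bp away, had 0, 0 and 3 counts in Ctrl and 0 in Confine. The transcripts of the copies match over 1264 bp at 95.8% identity, so reads could be split between them and both values are uncertain. None of the 9 other listed lysozyme and lysozyme-like genes passed the filter, and 7 of them had 0 counts in every library.

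The promoters of the copies are shown because the genes are near-identical but differ in counts. They were taken from RefSeq (GRCm38.p6) at chr10:117282322-117282522 for Lyz2 and chr10:117292918-117293118 for Lyz1, both on the minus strand, and capitals mark the bases that are equal in their alignment, 151 of 203 columns (74.4%).
Lyz2 promoter: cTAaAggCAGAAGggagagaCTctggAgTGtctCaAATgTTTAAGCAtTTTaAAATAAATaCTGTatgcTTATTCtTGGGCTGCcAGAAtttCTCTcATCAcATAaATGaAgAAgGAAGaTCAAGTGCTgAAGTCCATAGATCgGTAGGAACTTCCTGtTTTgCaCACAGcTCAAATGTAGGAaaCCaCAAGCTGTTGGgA
Lyz1 promoter: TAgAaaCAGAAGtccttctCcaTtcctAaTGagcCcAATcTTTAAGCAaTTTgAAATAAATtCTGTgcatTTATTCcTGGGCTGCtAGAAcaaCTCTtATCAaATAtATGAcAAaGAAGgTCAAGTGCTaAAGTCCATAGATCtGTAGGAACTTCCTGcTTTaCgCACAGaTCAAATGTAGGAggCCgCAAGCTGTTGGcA

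Because Lyz2 and Il1rn are also macrophage genes, 21 macrophage and myeloid markers were read in each library. Of the defining markers, Tyrobp, Adgre1 and C1qa had 0 counts in every library, Ptprc and Itgam had at most 2, and Spi1 at most 5. Csf1r had 20, 14 and 8 counts in Ctrl and 34 and 44 in Confine. Its log2 fold change was 1.45 (SE 0.48, edgeR adjusted p = 0.0367), under the fold limit. The summed level of the list was 11.6 to 15.3 normalized CPM in Ctrl and 36.6 to 41.9 in Confine, the direction opposite to that of Lyz2 and Il1rn. Cd68 and Cd14 made up most of this sum. Cd14 rose by 0.92 on the log2 scale (SE 0.22, edgeR adjusted p = 0.00444), also under the fold limit. Cd68, which many cell types use in lysosomes, rose by 2.67 on the log2 scale (SE 0.25, edgeR adjusted p = 3.94e-07). It was the 1 called gene of the 5 tested, and the part of other cells in the levels of the 6 genes was not tested beyond these values. In bulk samples, fewer cells expressing a gene and less RNA per cell cannot be told apart. Among 8 epithelial and 7 endothelial markers, only Krt19 and Vwf were tested, and both were called higher. The summed levels of these lists were 0.415 to 0.794 and 0.595 to 1.36 normalized CPM in Ctrl and 4.02 to 8.77 and 2.43 to 2.70 in Confine.

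Compared per kilobase of exon, the 6 genes came from very different starting levels. In Ctrl the level in normalized CPM per kb was 46.1 ± 12.8 for Il1rn, 20.4 ± 14.5 for Mc5r, 10.5 ± 1.12 for Abi3bp, 7.74 ± 0.642 for Atoh8, 3.23 ± 0.656 for Lyz2 and 1.19 ± 0.0594 for Kctd12 (SD, n = 3). In that order the ranges of Il1rn and Mc5r overlapped, as did those of Mc5r and Abi3bp. Il1rn stood above 92.1% of the 15871 tested genes with a known length, and Kctd12 above 32.8%. In Confine the levels were 4.89 ± 1.48 for Il1rn, 1.33 ± 0.648 for Mc5r, 0.674 ± 0.304 for Atoh8, 0.642 ± 0.122 for Abi3bp, 0.520 ± 0.118 for Lyz2 and 0.0704 ± 0.0346 for Kctd12 (SD, n = 2). The ranges of Atoh8, Abi3bp and Lyz2 overlapped there, and that of Mc5r overlapped that of Atoh8, while Il1rn and Kctd12 stayed apart at the ends. Il1rn was then above 60.8% of genes and Kctd12 above 2.33%. The 2 Confine libraries did not order the genes alike. Kctd12, Mc5r, Atoh8 and Il1rn were lower in Confine replicate 3 and Abi3bp and Lyz2 were higher, while 50.9% of all genes with a mean of at least 50 counts were lower in that library.

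**Figure D4:**
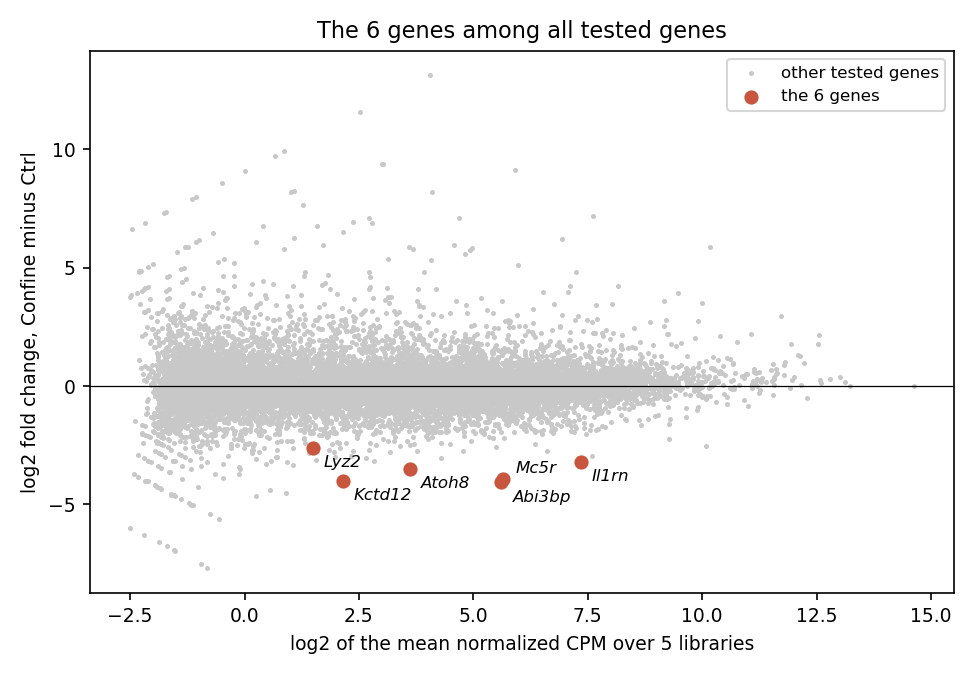
Log2 of the mean normalized CPM over 5 libraries (x axis) against the log2 fold change, Confine minus Ctrl (y axis), for all 15881 tested genes (grey) and the 6 genes (red). The 6 genes lie at log2 fold changes of -2.64 to -4.04 across a wide range of levels, and the 25 called genes with larger falls than Abi3bp and under 50 counts lie at the left.

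Profiles over the 5 libraries were compared by the Euclidean distance between log2 CPM values, each centred on its own mean, among tested genes with a mean of at least 20 counts, the 6 genes themselves left out. Slc1a3, a glutamate transporter, and Plb1, a phospholipase, were the nearest of these to Abi3bp, Kctd12, Atoh8 and Il1rn, the closest match for these 4 being Slc1a3 with Il1rn at a distance of 0.32. Slc1a3 had 8952, 6264 and 8217 counts in Ctrl and 1369 and 752 in Confine. For Mc5r they were Slc1a3 (1.30) and Id3 (1.73). For Lyz2 the nearest was the guidance cue Sema3a (0.16), which had a log2 fold change of -1.90. Between the 6 genes the smallest distance was that of Kctd12 and Atoh8 at 0.30 and the largest that of Mc5r and Lyz2 at 2.53. An offset of 0.5 CPM was added before the log, above the Confine mean of Kctd12 (0.426) and near that of Lyz2 (0.684). The offset shrinks the falls of both genes in these distances, so their matches may depend on it. Abi3bp was nearer to Atoh8 (1.09), and Mc5r to Il1rn (1.05), than to any compared gene outside the 6. Kctd12 and Atoh8 were nearer to each other (0.30) than to Slc1a3 (0.45 and 0.64). Only Il1rn, of these 5 genes, was nearer to Slc1a3 (0.32) than to any other of the 6. All 6 were picked for large falls between these same libraries, which favours nearness to each other and to other genes that fell. The distances are therefore a description.

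The 6 genes lie on 6 different chromosomes, and of the genes beside them that were tested only Psd4 was called lower. Tfg, 197 bp from Abi3bp, had 178 ± 57.5 normalized CPM in Ctrl and 156 ± 29.5 in Confine (SD, n = 3 and n = 2) and was not called (log2 fold change -0.19, SE 0.24), and Impg2 on the other side was not called either (0.46, SE 0.63). St3gal5, 51606 bp from Atoh8, was not called (-0.19, SE 0.19). Rnmt, 12744 bp from Mc5r, had a log2 fold change of 0.54 (SE 0.18, edgeR adjusted p = 0.0327), and Lmo7, 1041871 bp from Kctd12, one of -1.11 (SE 0.19, edgeR adjusted p = 0.000219), both under the fold limit. Psd4 encodes an exchange factor for the small GTPase ARF6 and starts 16086 bp beyond Il1rn. It had 21, 32 and 34 counts in Ctrl and 0 and 1 in Confine (edgeR adjusted p = 0.000195), a ratio of 60.4 with a 95% exact counting interval of 10.6 to 2410. The other 6 nearest genes, Acod1, Mc2r, Sftpb, Il1f6, 9530003J23Rik and Lyz1, had at most 3 counts in any library. A fall could not be seen in these, which include both genes beside Lyz2.

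Over the 6 lists together, 91 of 148 listed genes outside the chosen 6 were tested. Of these, 8 were called higher (8.79%) and 5 lower (5.49%), beside 4.89% and 3.11% of all tested genes. The lists were chosen with earlier results of these data known, so nothing can be read from the difference between these shares. The median log2 fold change of the 91 genes was -0.0092 and that of all tested genes -0.0021.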

How the data were processed

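MEF libraries were made from polyadenylated RNA with a dUTP protocol that keeps the strand. The authors deposited raw counts per gene. Per the labels, the submitters' processing notes name Trim Galore 0.6.10, HISAT2 2.1.0, SAMtools 1.5, featureCounts and the build mm10. The annotation release and the strand setting of the counting are not given in the sources used here. Names, positions and exon lengths came from GENCODE M21 (GRCm38), where 54587 of 55335 identifiers were found with the same version number and 55154 with any.

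Counts of 3 Ctrl and 2 distinct Confine libraries were filtered with filterByExpr, scaled by TMM (factors 1.04, 1.08 and 1.06 in Ctrl, 0.910 and 0.924 in Confine) and compared by edgeR's quasi-likelihood F-test (edgeR 4.0.16, R 4.3.3), without a replicate block. P-values were adjusted over 15881 genes by the Benjamini-Hochberg procedure. Residual degrees of freedom numbered 3, and edgeR added a median of 14.8 from the shared spread. The procedure was tested on simulated data. Fold changes are those of edgeR. DESeq2 1.42.0, limma 3.58.1, other scalings, filters and pairings, and leaving out each library were tried. Reads carried no molecular identifiers, so intervals and floors describe the error of counting and nothing else. Profiles used log2 CPM with an offset of 0.5.

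The 6 genes and the lists were chosen with earlier results of these data known. Named besides them were called and preset genes of 6 lists, the nearest protein-coding genes with counts, the 2 genes nearest by profile (1 gene is not reported here) and genes ranked among the 6 by fold change. Promoter windows were matched for 4 of the 6 genes and searched over 250 bases on both strands for 7 motifs. Transcript copies were sought with blastn 2.17.0, at 95% identity over at least 100 bp.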

Additional observations from a re-analysis of the deposited data

How the results depend on the processing

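Over 14 alternatives the log2 fold changes kept their sign, ranging from -4.24 to -3.85 for Abi3bp, -4.66 to -3.63 for Kctd12, -4.54 to -3.18 for Mc5r, -4.07 to -3.12 for Atoh8, -3.58 to -2.96 for Il1rn and -2.88 to -2.42 for Lyz2. The ends for Kctd12, Atoh8, Il1rn and Lyz2 came from leaving out Confine replicate 2 or 3. The same holds for the -4.54 of Mc5r and the -3.85 of Abi3bp. Such fits leave 1 Confine library, which is assumed to vary like Ctrl. Called list genes numbered 9 lower with scaling by total counts alone, 5 higher among genes with a mean of at least 50 counts, and 24 higher and 13 lower without the fold limit. Over all genes these were 472 higher and 305 lower at that mean, where fewer genes were tested. Without the fold limit they were 2035 higher and 1619 lower. With scaling by total counts alone, 1300 of all genes were called and 47.8% of those were higher, against 1271 and 61.1% with TMM. When each library was left out in turn, called list genes ranged from 6 to 7 higher and 5 to 7 lower, and all genes from 618 to 801 higher and 353 to 505 lower.

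The replicate block, in which Ctrl and Confine libraries of one number share a term, gave 7 called list genes higher and 6 lower, and values of -3.97 for Abi3bp, -4.11 for Kctd12, -3.95 for Mc5r, -3.58 for Atoh8, -3.18 for Il1rn and -2.47 for Lyz2. It had 1 residual degree of freedom. Numbers were not shown to pair the samples, since the differences between replicates 2 and 3 in Ctrl and Confine correlated at -0.056 over 15684 genes. With the block Tnxb (1.38) lost its call and Smad6 (-1.60) gained one. Fold changes near 0 changed sign: Abi1 (0.025) and Tfg (0.064) with the block, and Tcf3 (0.10) and Tcf12 (0.13) with the repeated column taken as number 1, an alternative chosen after seeing the data. Leaving out 1 library gave -0.082 to 0.019 for Abi1, -0.43 to 0.028 for Tfg, -0.20 to 0.10 for Tcf3 and -0.15 to 0.13 for Tcf12. The cause was not tested. Of the other genes named, 687 values kept direction and side of the threshold, 23 lost the call, 4 gained one and 8 changed sign. With 2 Confine libraries and as few as 7 counts, differences between the 6 genes in how far they fell are poorly resolved.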

Other observations

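Several of the 20 other genes that ranked above Lyz2 by fall have known roles, and their values are given as a description because rank chose them. Besides Ogn, secreted or matrix genes among them included Matn4, a matrilin, at a log2 fold change of -3.05 (SE 0.48), Sfrp2, a secreted Wnt modulator, at -2.83 (SE 0.42), and Islr, a secreted leucine-rich repeat protein, at -2.80 (SE 0.29). The AP-1 subunit genes Fos and Fosb stood at -2.74 (SE 0.42) and -2.64 (SE 0.45). Fos had 961, 253 and 452 counts in Ctrl and 61 and 105 in Confine. Cadherin family genes included Dchs2 at -3.32 (SE 0.51) and Cdh3, P-cadherin, at -2.76 (SE 0.34).

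Not every gene in this range was as even as Abi3bp. Gm18194 had 353, 21 and 17 counts in Ctrl and 14 and 15 in Confine, and without Ctrl replicate 1 its log2 fold change was -0.51. The mitochondrial gene mt-Nd3 had 93, 321 and 22 counts in Ctrl and 25 and 21 in Confine, and without Ctrl replicate 2 its value was -1.32.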
